A study of Danio rerio with 12 samples.

Results

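The genes described here build the extracellular matrix of the zebrafish embryo: the collagens, the matrilins of cartilage, the laminin chains, fibronectin, the fibrillins, the fibulins and the thrombospondins. They were chosen by name alone, as every gene whose symbol began with col and a digit, matn, lam with a, b or c and a digit, fbn, fn1, fbln or thbs, in either letter case. The rule found 78 of the 14820 genes in the deposited tables, with 479 of 42171 skipped-exon events, 356 of 37366 distinct exons and 1 of 784 retained introns. It used no measured value. Among them, 2 genes share only the name, COL4A3BP and col4a3bpa, which encode ceramide transfer proteins, and thbs4a appeared only in a deposited expression table. Some symbols stand for a pair of gene identifiers, so the 78 genes have 74 distinct symbols. The repeated ones are col6a3, fbn2a, COL23A1 and lamb1a, and whether reads were split between similar copies was not checked.

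RNA from whole embryos was sequenced in 12 libraries, 3 in each of 4 groups, to ask how mutations in RNA processing genes found in screens for T cell development alter transcripts and splicing. The groups were wild-type controls, snapc3-/- embryos, lsm8-/- embryos and embryos labelled as tnpo3 mutants. The product of snapc3 serves transcription of small nuclear RNA genes, lsm8 encodes a protein of the ring that binds U6 small nuclear RNA, and tnpo3 encodes an import receptor for SR splicing proteins. The labels used here state neither developmental stage nor alleles nor embryos per library, so p-values measure only the spread between these libraries. By the labels, 1 control library each carried mixed background A, B and C, while all snapc3 mutant libraries carried A, all lsm8 mutant libraries B and all tnpo3 mutant libraries C. Each mutant thus has 1 control of its own background. Values are listed below in the order of the libraries in the deposited cells, called positions 1 to 3, and that order is not matched to replicate numbers or backgrounds, so no comparison within a background was made. Where all libraries of a mutant lie outside all 3 controls, they also lie outside the control of their own background.

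Collagens are trimers whose chains wind into a triple helix, in which glycine recurs at a fixed step. In the fibril-forming members the helix is encoded by many short exons that start and end between whole codons, so that loss of an exon shortens the chain without shifting the reading frame. Cartilage and the notochord sheath rest on collagen II with collagens IX and XI and on matrilins, skin and tendon on collagen I, and basement membranes on laminin and collagen IV.

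In the events listed for every mutant, libraries held 8181111 to 9253592 junction reads in controls, 8558928 to 9692025 in snapc3 mutants, 5578850 to 7096126 in lsm8 mutants and 7714155 to 8971215 in tnpo3 mutants. Of these reads the matrix genes took between 1.11% and 1.61%, where junctions shared by overlapping events count more than once. Of their 174 events here, 63 lay in matn4. The tnpo3 transcript lay at 56.1, 50.7 and 53.5 CPM in controls (reads of the gene scaled to the junction reads of its library) and at 17.7, 10.6 and 15.3 CPM in tnpo3 mutants (log2 difference −1.90, limma adjusted p = 4.5e-05). In the authors' deposited tables snapc3 stood at a log2 fold change of −1.39 in snapc3 mutants, whereas lsm8 stood at 2.87 in lsm8 mutants and 2.19 in snapc3 mutants. An RNA level does not check a label where the allele is not given.

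Most exons in these tables that belong to matrix genes could be left out without a frame shift. Their length was a multiple of 3 in 267 of 356 exons (75%), against 45.2% of the 37010 other exons. It was a multiple of 9, the length that encodes whole Gly-X-Y triplets, in 44.9%, against 15.3% of the others. Exons are not replicates and overlapping events share them, so these shares are given without a test.

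Exon lengths clustered at the sizes typical of collagen helices. A length of 54 bases was the most common, with 52 exons in 23 genes, which is 14.6% of matrix exons against 0.708% of the others. Next came 45 bases with 19 exons in 12 genes (5.34% against 0.576%), followed by 36 bases and 123 bases with 11 exons each. All 11 exons of 123 bases belonged to matn4, a matrilin.

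The families differed widely in frame. In the 13 fibrillar collagen genes, 89.3% of 84 exons were multiples of 3, 77.4% were multiples of 9 and 44.0% had 54 bases. Every one of 21 matrilin exons and 24 exons of membrane-spanning collagens kept the frame. The fibril-associated collagens (FACIT), which sit on the surface of fibrils, stood at 71.9% of 57 exons, and collagens VI and XXVIII at 78.6% of 28. Laminins lay at the other end, with 43.3% of 30 alpha-chain exons, 42.9% of 7 gamma-chain exons and 17.4% of 23 beta-chain exons. Thus the laminin beta chains had the lowest share among families with more than 1 exon, below the 45.4% of all exons.

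**Figure D1:**
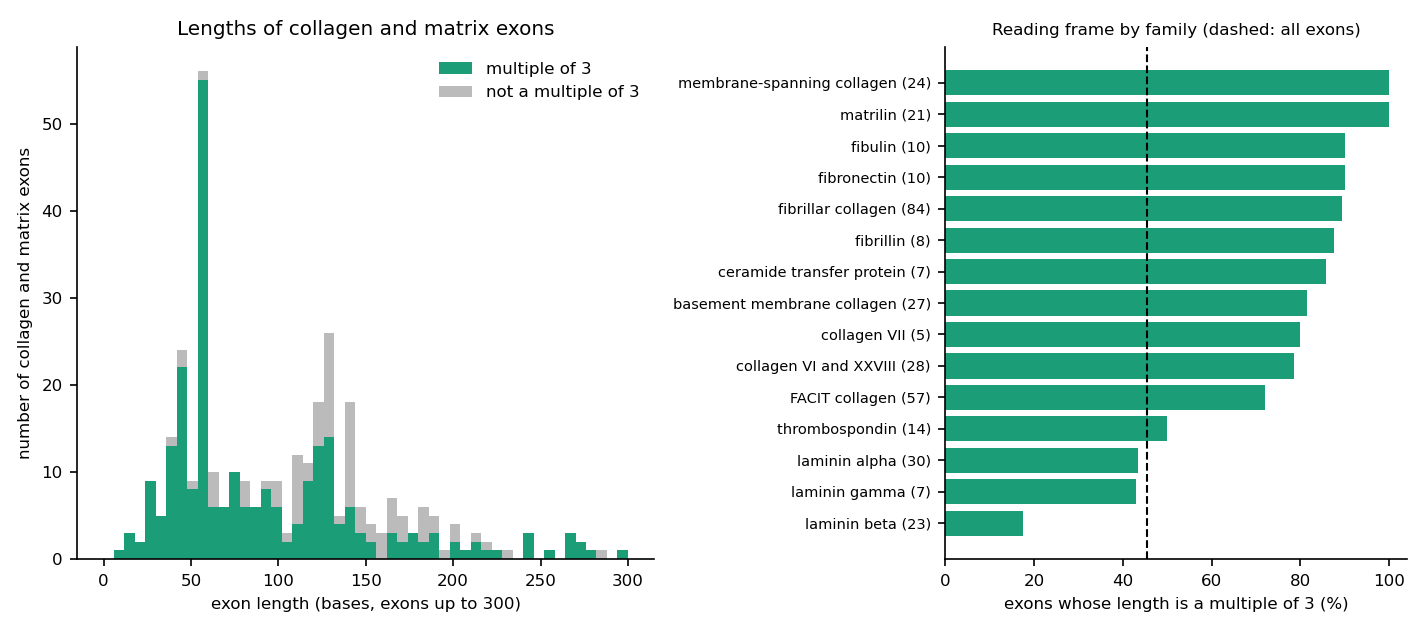
Left, number of matrix exons by length in bases (exons up to 300 bases), coloured by whether the length is a multiple of 3. Right, percent of exons with a length that is a multiple of 3 in each family, with the number of exons in brackets and all exons as a dashed line; fibrillar collagens reach 89.3% and laminin beta chains 17.4%.

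In wild-type embryos most of these exons were fully used. Of 433 matrix events with a mean of at least 20 control reads, 344 had a mean inclusion of 99% or more (79.4%, against 82.3% of all events). In matn4 the share was 61.3%, and without matn4 it was 83.2%. Inclusion is the share of the inclusion form in an event, in percent, from junction reads divided by the length of each form. It holds for the flanking exons of that event, and an exon listed with other flanking exons can have another value. Inclusion between 10% and 90% in controls was found in 40 events of 18 genes (9.24%, against 6.14% of all). Of the 40, 39 kept the frame, as did 1883 of the 2407 such events over all genes. In matn4 lay 9 of the 40.

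Genes of cartilage were among those with partly used exons. In col2a1a, which encodes the main collagen of cartilage and the notochord sheath, a 210-base exon (Zv9, chromosome 8, 21736232 to 21736441) was included at 51.4%, 50.4% and 62.5% in controls. It stood at 49.1%, 57.5% and 58.6% in snapc3 mutants, at 67.0%, 71.2% and 67.8% in lsm8 mutants and at 53.8%, 51.6% and 59.0% in tnpo3 mutants. The lsm8 mutants all lay above the controls, by 13.9 points, but the difference did not pass the test (limma adjusted p = 0.459). In mammals an exon near the start of the type II collagen gene is included in cartilage precursors and left out in mature cartilage; whether the 210-base exon is its counterpart was not checked.

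A 129-base exon of matn1, a matrilin of cartilage, lies on chromosome 19 at 45254318 to 45254446. This exon showed a like picture in its event with the flanking exon ending at 45252159. Its inclusion was 56.2%, 58.5% and 72.8% in controls, 64.1%, 69.8% and 64.0% in snapc3 mutants, 78.6%, 77.1% and 78.7% in lsm8 mutants and 66.4%, 69.0% and 68.2% in tnpo3 mutants. Again the lsm8 mutants lay above all controls, by 15.6 points, without passing the test (limma adjusted p = 0.367). It rested on a mean of 2968 reads per library in that comparison.

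In col11a2, a chain of cartilage collagen XI, a 129-base exon (chromosome 19, 7826920 to 7827048) had several events. In that between 7824685 and 7828191 it was included at 57.9%, 51.9% and 67.5% in controls and at 67.4%, 81.5% and 69.0% in lsm8 mutants. Those groups overlapped narrowly, and the difference of 13.5 points did not pass (limma adjusted p = 0.463). A 126-base exon of matn3a ranged from 40.7% to 60.7% in controls, and each mutant group overlapped that range. In col6a3, a chain of the microfibrillar collagen VI, a 594-base exon (chromosome 9, 25020863 to 25021456) stood at 52.1%, 52.5% and 49.9% in controls. That exon was close to even use in every group, between 46.4% and 62.4% across all mutant libraries.

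Inclusion near the middle was also found outside cartilage genes. The FACIT gene col16a1 had a 54-base exon at 49.0%, 53.95% and 58.7% in controls and at 21.2%, 40.5% and 23.1% in lsm8 mutants, all lower than every control (−25.7 points, limma adjusted p = 0.102, not passing). A 78-base exon of col4a3bpa, a ceramide transfer protein gene, was at 50.2%, 60.9% and 42.8% in controls and at 30.6%, 33.9% and 21.3% in lsm8 mutants (−22.7 points, limma adjusted p = 0.150, not passing). The exons of COL13A1 (36 bases), col15a1b (45 bases) and col7a1 (96 bases) had overlapping groups, and for col7a1 the 3 controls spread from 34.0% to 100%. That col7a1 event had a mean of 20.3 reads in controls, with only 1, 0 and 1 skipping reads. Its values thus rest on single reads and do not show use near the middle. None of the 10 events nearest to even use in controls was called in a mutant.

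Exon calls were rare among matrix genes. An exon was called at a limma adjusted p below 0.05 over all exons of a table with a mean difference of at least 10 percentage points. In snapc3 mutants 1 of 245 tested matrix events was called (0.69% of all tested events called), in lsm8 mutants 4 of 329 (1.16%) and in tnpo3 mutants 2 of 258 (2.18%). These counts are near or below the share among all exons. At an adjusted p below 0.05 with a difference of any size they were 1, 17 and 6 (2.62%, 4.3% and 6.26% of all). With the FDR that the authors deposited and the same minimum difference they were 2, 11 and 7 (1.42%, 2.11% and 3.1% of all). An event absent from another mutant's table has no value there.

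The direction of small differences depended on which events were counted. Inclusion was lower in the mutants for 146 of 245 events in snapc3 (59.6%, against 67.6% of all events), 233 of 329 in lsm8 (70.8% against 67.9%) and 177 of 258 in tnpo3 mutants (68.6% against 75.9%). An event is listed only when it has reads of both forms, so those with no skipping reads in controls could only be lower, and they made up 82, 164 and 98 of these events. Without them 64 were lower and 99 higher in snapc3, 69 and 96 in lsm8 and 79 and 81 in tnpo3 mutants. A further 33, 31 and 31 events had no skipping reads in the mutants and could only be higher. Among events with skipping reads in both groups, 64 were lower and 66 higher in snapc3, 69 and 65 in lsm8 and 79 and 50 in tnpo3 mutants, that is 49.2%, 51.5% and 61.2% lower, against 64.0%, 64.4% and 68.4% of all such events. Over all tested matrix events the median difference was −0.13, −0.12 and −0.22 points, closer to 0 than over all exons (−0.37, −0.39 and −0.59 points). Of the tested matrix events, 70, 74 and 68 lay in matn4, whose overlapping events share junctions. Matrix events were also deeper, with median reads of 349, 411 and 368 against 176, 162.5 and 174 over all events. The part of matn4 and of depth in these contrasts was not tested.

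The abundant collagen I chains, encoded by col1a1a, col1a1b and col1a2, gave tests at high depth. Across 21 tests with means of 1375 to 6199 reads per library, their exons differed from controls by at most 0.162 points (smallest limma adjusted p = 0.474). Control inclusion was 100% in all of them, so these exons were listed only through a few mutant skipping reads and could only be lower. Most of the tests were in lsm8 mutants. Neither col1a1a nor col1a2 was tested in tnpo3 mutants, nor col1a1b in snapc3 mutants, so stability across the mutants was not shown. Exon tests existed for 21 of 24 genes picked for description whatever their values, and not for col8a1a, col10a1a and lama1. In fn1b, which encodes a fibronectin, a 279-base exon was included at only 9.76%, 7.71% and 4.76% in controls. A single lsm8 library reached 30.6% for it and the others 5.08% and 8.46%, and the mean did not differ by the test (limma adjusted p = 0.586).

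In snapc3 mutants the called exon lay in lama3, the laminin alpha chain that in mammals joins the epidermis to its basement membrane. Its 100-base exon (chromosome 22, 16616705 to 16616804) was included at 100% in all 3 controls, and at 96.1%, 62.8% and 89.3% in snapc3 mutants. Skipping reads numbered 0, 0 and 0 of 69, 161 and 96 reads in controls, which allows up to 4.35%, 1.86% and 3.12% of the reads, and 2, 8 and 3 in the mutants. All mutants lay below all controls, by 17.3 points (limma adjusted p = 0.0249), but without control skipping reads they could not have been higher. The event is not listed for lsm8 or tnpo3 mutants. This exon does not keep the frame. The call rests on few reads. It was lost without the snapc3 library in position 2 (−7.30 points, adjusted p = 0.125, limma) or 3 (−20.5 points, adjusted p = 0.0832, limma), with a pseudocount of 2 reads (0.113) and in a quasi-binomial model (0.328).

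In lsm8 mutants 3 of the 4 called exons lay in matn4, whose product has A domains and EGF-like repeats and links matrix fibres. This gene had 12 neighbouring exons of 123 bases, or 41 codons, on chromosome 6, numbered here in the direction of transcription from exon 1 (52763547 to 52763669) to exon 12 (52782329 to 52782451). Which protein domain each encodes was not checked, and repeated exons may share sequence. Reads joined exons that are not neighbours in 34 combinations, 17 of them with at least 20 reads in all libraries together. Since every unit has the same length, each such junction leaves out a whole multiple of 123 bases and keeps the frame.

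A junction from matn4 exon 7 to exon 10, which leaves out 246 bases, set the lsm8 mutants apart. It had 37, 36 and 41 reads in lsm8 mutants, against 0, 1 and 0 in controls, 0, 0 and 0 in snapc3 mutants and 0, 2 and 2 in tnpo3 mutants. The lsm8 libraries thus held far more of these reads than any other, although their totals were the smallest. In the corresponding event exon 8 (52777559 to 52777681) was included at 87.2%, 89.0% and 90.1% in lsm8 mutants and at 100%, 99.8% and 100% in controls (−11.1 points, limma adjusted p = 0.000162).

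The other matn4 calls in lsm8 mutants share the reads that join exon 4 to exon 10. Against that junction, exon 7 (52775051 to 52775173) was included at 36.6%, 38.3% and 41.3% in lsm8 mutants and at 0.917%, 1.08% and 0.840% in controls, a gain of 37.8 points (limma adjusted p = 4.24e-06). Nearly all inclusion reads of this event in lsm8 mutants (37, 36 and 45) are the reads joining exon 7 to exon 10. Exon 6 (52771744 to 52771866) stood at 72.3%, 74.0% and 77.5% in lsm8 mutants and at 35.7%, 31.3% and 42.4% in controls (38.1 points, limma adjusted p = 0.0101). All inclusion reads of the exon 6 event in lsm8 mutants (167, 165 and 220) are reads joining exon 6 to exon 10, as are nearly all in controls. It thus sets the junction from exon 6 against that from exon 4, and does not measure exon 6 beside other exons. Between exons 3 and 10, exon 6 was included at 87.7%, 88.2% and 91.4% in controls, with no value in lsm8 mutants. No control read joined exon 3 to exon 6, so this event too sets the junction from exon 6 against another, that from exon 3. In both called events the groups lay far apart. The call of exon 7 held under every alternative tried, whereas that of exon 6 was lost in the quasi-binomial model (adjusted p = 0.0554). The gain of exon 7 holds only beside the junction from exon 4 to exon 10. Beside the junction from exon 6 to exon 10, exon 7 was included at 79.8%, 71.6% and 78.0% in controls. There it was lower in lsm8 mutants, at 58.1%, 64.2% and 59.7% (−15.8 points, limma adjusted p = 0.348, not passing).

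Reads joining exon 4 to exon 10 numbered 32, 29 and 32 in lsm8 mutants and 54, 183 and 59 in controls. Scaled to the size of each library they were 4.99, 4.75 and 3.999 CPM against 6.86, 20.3 and 6.58 CPM, a narrower gap to each control, since the lsm8 libraries were the smallest. Reads from exon 6 to exon 10 numbered 167, 165 and 220 in lsm8 mutants and 57, 164 and 85 in controls, or 26.04, 27.05 and 27.5 CPM against 7.24, 18.2 and 9.48 CPM. In tnpo3 mutants the junction from exon 4 was at 15.4, 20.2 and 15.4 CPM and that from exon 6 at 22.7, 28.7 and 24.6 CPM. The lsm8 libraries thus lay below all controls for the junction from exon 4 and above all controls for the junction from exon 6. These scaled values were not tested.

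**Figure D2:**
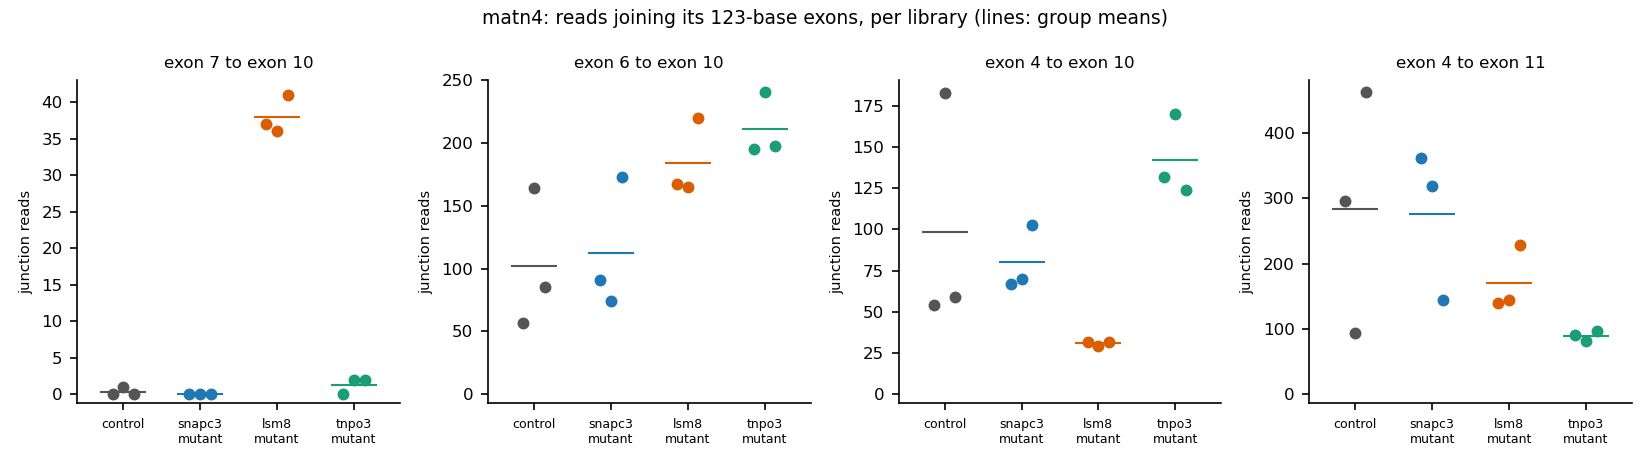
Junction reads in each library (points; lines are group means of 3 libraries) for 4 matn4 junctions between 123-base exons. The junction from exon 7 to 10 has 36 to 41 reads in the lsm8 mutants and 0 to 2 in every other library.

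Most reads from exon 4 of matn4 joined it to its neighbour, exon 5. Where exon 5 was skipped, exon 4 was joined mainly to exon 10 or to exon 11, and the choice between them varied even among controls. The share of exon 10 in reads to either was 15.4%, 66.1% and 11.3% in controls, 15.6%, 17.99% and 41.5% in snapc3 mutants, 18.7%, 16.8% and 12.3% in lsm8 mutants and 59.2%, 67.7% and 56.1% in tnpo3 mutants. The control in position 2 lay within the range of the tnpo3 mutants, and the other controls lay near the lsm8 mutants. No test was made of this ratio, which was chosen after its values were seen.

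The pairs of mutants were compared directly for 164 matrix events listed in all 3 tables. Between lsm8 and snapc3 mutants 4 were called, all in matn4 (1.11% of all called), and between tnpo3 and lsm8 mutants 7, of which 5 lay in matn4 (2.58%). Between tnpo3 and snapc3 mutants 0 were called by limma (2.6%), with 28 events at an unadjusted p below 0.05. In the event of matn4 exon 7 that was called in lsm8 mutants, they exceeded the snapc3 mutants by 38.7 points (limma adjusted p = 6.66e-06). There they exceeded the tnpo3 mutants by 37.9 points (tnpo3 minus lsm8 −37.9 points, limma adjusted p = 0.000118).

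The remaining lsm8 call was a 36-base exon of col16a1, a FACIT (chromosome 19, 40105406 to 40105441). It was included at 7.22%, 28.6% and 17.7% in controls and at 0%, 3.55% and 0% in lsm8 mutants (−16.7 points, limma adjusted p = 0.00677). Depth was low, since the zeros came from 16 and 31 reads and allow up to 18.8% and 9.68% of the reads. The groups did not overlap, but the call was lost without the lsm8 library in position 1 (−16.1 points, adjusted p = 0.0666, limma) or 3 (−16.1 points, adjusted p = 0.0575, limma), and in several alternative fits (up to 0.322). In snapc3 mutants it stood at 5.82%, 23.95% and 11.9%, and in tnpo3 mutants at 14.9%, 6.25% and 8.05%, not called in either.

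In lsm8 mutants some exons of matrix genes passed the test without reaching the 10-point minimum. Of the 329 matrix events tested there, 17 had a limma adjusted p below 0.05, beside 4.3% of all events. All 17 kept the frame, as did 281 of all 329. In matn4 lay 7 of the 17. Outside matn4 there were 10, all of them lower, and 6 of these had no skipping read in controls and so could not have been higher. The largest of those below 10 points was a 33-base exon of COL9A1, a chain of cartilage collagen IX (chromosome 11, 11404464 to 11404496), at 100% in all controls and 86.0%, 95.2% and 97.5% in lsm8 mutants. Its skipping reads were 27, 10 and 8 (limma adjusted p = 0.00041). A further 33-base exon of the gene stood at 97.4%, 97.6% and 98.6% against 100% in all controls (limma adjusted p = 0.000773).

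In col17a1a, the membrane-spanning collagen that in mammals anchors epidermal cells, a 27-base exon fell to 97.6%, 92.9% and 94.6% in lsm8 mutants from 100%, 99.8% and 99.6% (limma adjusted p = 0.00179). A 57-base exon of that gene fell by 1.2 points (limma adjusted p = 0.00911). The remaining losses outside matn4 were in matn1 (405 bases), fbln1 (51 bases), col2a1a (54 bases) and col4a1 (an exon of 216 or 213 bases, counted with either end). They ranged from −0.276 to −3.12 points.

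In tnpo3 mutants the larger of the 2 calls was a 594-base exon of col6a3 (chromosome 9, 25019229 to 25019822), which neighbours the partly used exon of the same length. Controls included it at 100% each, with 0 skipping reads of 125, 127 and 177, which allows up to 2.4%, 2.36% and 1.69% of the reads. All of these control reads join it to the exon starting at 25023680, and so skip the neighbouring partly used exon. Reads joining it to the exon ending at 25017994 numbered 0 in each control and 6, 3 and 6 in tnpo3 mutants. The skipping reads leave out both 594-base exons, so the event largely compares loss of the neighbour alone with loss of both. The tnpo3 mutants stood at 90.7%, 82.9% and 81.0%, with 8, 11 and 13 skipping reads (−15.1 points, limma adjusted p = 0.00135). Every mutant library was below every control, but without control skipping reads none could have been higher. The exon keeps the frame, and the call held when any 1 library was left out but not in the quasi-binomial model (adjusted p = 0.0766). The event is listed in the tnpo3 table alone.

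The second tnpo3 call was exon 9 of matn4 between exons 5 and 11, at 69.2%, 100% and 88.9% in controls and 100% in all tnpo3 mutants (13.96 points, limma adjusted p = 0.0400). All inclusion reads of this event in tnpo3 mutants (47, 61 and 40) join exon 5 to exon 9, and none joins exon 9 to exon 11. In these mutants it thus sets the junction from exon 5 to exon 9 against that from exon 5 to exon 11. The groups touched at 100%, and the controls held only 4, 0 and 1 skipping reads. Leaving out any library other than the control in position 2 ended the call, and without the control in position 1 the difference was 5.56 points (limma adjusted p = 0.254). Without the other 4 libraries the adjusted p lay between 0.0854 and 0.118 (limma). At an adjusted p below 0.05 with any difference, 4 events outside matn4 were all lower and had no control skipping reads. They were the 594-base and a 612-base exon of col6a3 (−1.44 points), a 165-base exon of col11a1a (−3.69 points) and a 350-base exon of col6a6 (−4.02 points), the last of which does not keep the frame.

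**Figure D3:**
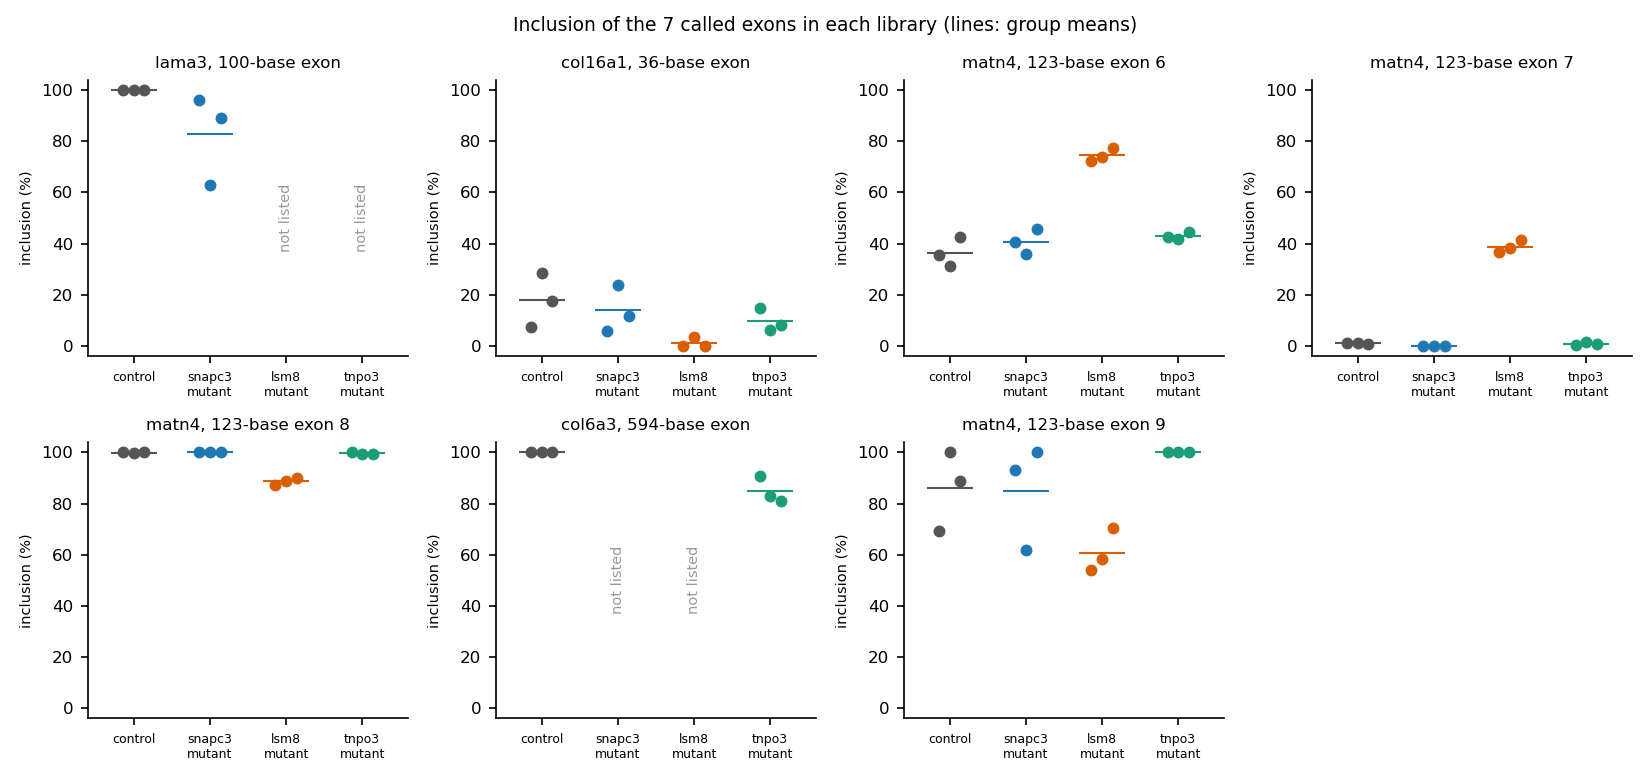
Inclusion in percent in each library (points; lines are means of 3 libraries) for the 7 called events; groups without points have no value for that event. In their called events, the lama3 and col6a3 exons are at 100% in all controls, and the control reads of the col6a3 event all skip a neighbouring exon. In its called event, matn4 exon 7 is between 36.6% and 41.3% in the lsm8 mutants and at most 1.45% in every other library. Between other flanking exons, exon 7 is included at 71.6% to 79.8% in controls.

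The retained-intron tables held a single matrix gene. A 79-base intron of LAMA3 on chromosome 2 (1136846 to 1136924), a gene listed apart from lama3, had no intron reads in controls beside 9, 15 and 16 spliced reads, which allows up to 33.3%, 20% and 18.8% of the reads. Mutants had 0 to 3 intron reads per library. None of the tests passed (limma adjusted p = 0.818, 0.221 and 0.934 for snapc3, lsm8 and tnpo3, none with an unadjusted p below 0.05), with 0, 1.62 and 0% of all introns called.

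Transcript levels were gauged by summed junction reads: inclusion and skipping reads of the events listed for all mutants, added per gene and scaled to CPM. These sums depend on the events listed and are no full gene counts, levels cannot be compared between genes, and overlapping events share junctions. For matn4 63 events were summed. Of the genes found by name, 51 could be tested among 7526 genes, 49 without the 2 ceramide transfer protein genes. In bulk RNA, fewer cells of a type and less RNA per cell cannot be told apart.

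In these sums 10 matrix genes, and COL4A3BP, which shares only the name, changed in at least 1 mutant. By limma voom at an adjusted p below 0.05 over all genes, 6 of 51 were called in snapc3 mutants (8% of all genes), 6 in lsm8 mutants (12.1%) and 2 in tnpo3 mutants (5.66%), so the shares are near those of all genes. Of these, 5 rose in snapc3 (3.73% of all), 5 in lsm8 (4.98%) and 1 in tnpo3 mutants (2.01%), and 1 fell in each (4.27%, 7.16% and 3.65%). More than 1 mutant called 2 of them, lama3 and col11a1b. The mutants share their controls, so their values are given side by side.

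The laminin chain lama3 fell in every mutant. Its level was 42.2, 43.4 and 41.6 CPM in controls, 20.7, 14.1 and 21.9 CPM in snapc3 mutants, 22.3, 19.8 and 24.4 CPM in lsm8 mutants and 31.3, 26.4 and 29.1 CPM in tnpo3 mutants. No mutant library reached the lowest control. The log2 difference was −1.18 in snapc3 (SE 0.16, limma adjusted p = 0.000352), −0.93 in lsm8 (SE 0.16, limma adjusted p = 0.00154) and −0.55 in tnpo3 mutants (SE 0.14, limma adjusted p = 0.0372). The first and second held without any single library. The tnpo3 call was lost without each library in turn (adjusted p 0.0622 to 0.146, limma) and under total count scaling, a trend fit, a single event per gene and scaling by form length, where the difference fell as far as −0.35. The sum uses 4 events and not the called 100-base exon.

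Other laminin chains were higher where they passed. Both lama4, a chain of vessel basement membranes in mammals, and lamb2, a beta chain, rose slightly. For lama4, levels were 103, 112 and 98.1 CPM in controls and 125, 127 and 148 CPM in snapc3 mutants (log2 0.36, limma adjusted p = 0.0463). It lost the call without each library in turn (adjusted p 0.0609 to 0.18, limma). For lamb2, controls had 63.0, 77.04 and 64.4 CPM and lsm8 mutants 97.3, 93.6 and 93.7 CPM (log2 0.48, limma adjusted p = 0.0146), lost without the control in position 1 (0.0587) or the lsm8 library in position 1 (0.0507). The remaining laminins, among them lama2, lama5, lamb1a and lamc3, did not pass in any mutant.

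Of the chains of collagens II, IX and XI, the collagens of cartilage fibrils, 5 genes could be tested. Of these, 2 rose in snapc3, 3 in lsm8 and 0 in tnpo3 mutants (3.73%, 4.98% and 2.01% of all genes rose). Only col11a1b passed in more than 1 mutant, and col9a2 passed in none, at log2 0.36, 0.02 and 0.35 in snapc3, lsm8 and tnpo3 mutants (limma adjusted p = 0.177, 0.963 and 0.206). The collagen XI chain col11a1b was at 130, 128 and 134 CPM in controls, 198.9, 183 and 180 CPM in snapc3, 177, 166 and 197 CPM in lsm8 and 135, 146 and 141 CPM in tnpo3 mutants. It rose by 0.52 (SE 0.09, limma adjusted p = 0.00277) in snapc3 and by 0.46 (SE 0.10, limma adjusted p = 0.00534) in lsm8 mutants, with every library above every control and both calls kept without any single library. In tnpo3 mutants the log2 difference was 0.11 (limma adjusted p = 0.563).

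The other collagen XI chains passed in 1 mutant each. For col11a1a, controls had 558, 533 and 506 CPM and lsm8 mutants 671, 647 and 720 CPM (log2 0.35, limma adjusted p = 0.0211). The call was lost without the control in position 2 (0.0561) or 3 (0.0601) or the lsm8 library in position 1 (0.0549) or 3 (0.093). In snapc3 mutants it stood at log2 0.18 (limma adjusted p = 0.260). For col11a2, controls had 333, 228 and 214 CPM and snapc3 mutants 360, 339 and 386 CPM (log2 0.52, limma adjusted p = 0.0323), and only leaving out the control in position 1 kept the call (0.0525 to 0.136 without the others). In lsm8 mutants it stood at log2 0.20 (limma adjusted p = 0.388). The groups did not overlap where a gene passed.

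The summed reads of col2a1a, the collagen II gene, rose in lsm8 mutants. Reads of col2a1a came to 216, 152 and 207 CPM in controls and to 313, 299 and 301 CPM in lsm8 mutants (log2 0.68, SE 0.14, limma adjusted p = 0.00539). In snapc3 mutants they were 245, 274 and 251 CPM, also above all controls but not passing (log2 0.44, limma adjusted p = 0.073), and in tnpo3 mutants 148, 168 and 215 CPM. The lsm8 call rests on 1 event, that of the 210-base exon, and was kept without any single library. It was lost with all events of the lsm8 table (log2 0.49, adjusted p = 0.0576) and with reads scaled by form length (log2 0.42, adjusted p = 0.0564). Inclusion of the 210-base exon was 13.9 points higher in lsm8 mutants, without passing, and the included form has more junctions to count. The part of inclusion in the higher sum was not tested.

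The minor fibrillar collagen col27a1a, known in zebrafish for its part in the notochord sheath, was low in all groups. It stood at 6.22, 5.45 and 5.58 CPM in controls and 14.2, 10.8 and 9.62 CPM in lsm8 mutants (log2 0.97, SE 0.24, limma adjusted p = 0.0167). The call was lost without the control in position 2 (0.0583) or the lsm8 library in position 1 (log2 0.82, adjusted p = 0.0706, limma).

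Of the genes for collagen XVII, an epidermal collagen in mammals, col17a1a rose in snapc3 and col17a1b in tnpo3 mutants. For col17a1a, controls had 1062, 1305 and 1031 CPM and snapc3 mutants 1646, 1881 and 1815 CPM (log2 0.66, SE 0.12, limma adjusted p = 0.00282), a call kept without any single library. It lay at 1181, 1225 and 1161 CPM in lsm8 and at 1122, 1516 and 1131 CPM in tnpo3 mutants, both overlapping the controls. For col17a1b, controls had 26.2, 32.6 and 25.2 CPM and tnpo3 mutants 44.9, 46.7 and 46.0 CPM (log2 0.72, limma adjusted p = 0.033). That call was kept only without the control in position 2 (0.0715 to 0.106 without the others). The last called gene, COL4A3BP, is no matrix gene; it rose in snapc3 mutants (log2 0.44, limma adjusted p = 0.0334), lost without the control in position 1 (0.0689) or 3 (0.112) or the snapc3 library in position 3 (0.142).

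**Figure D4:**
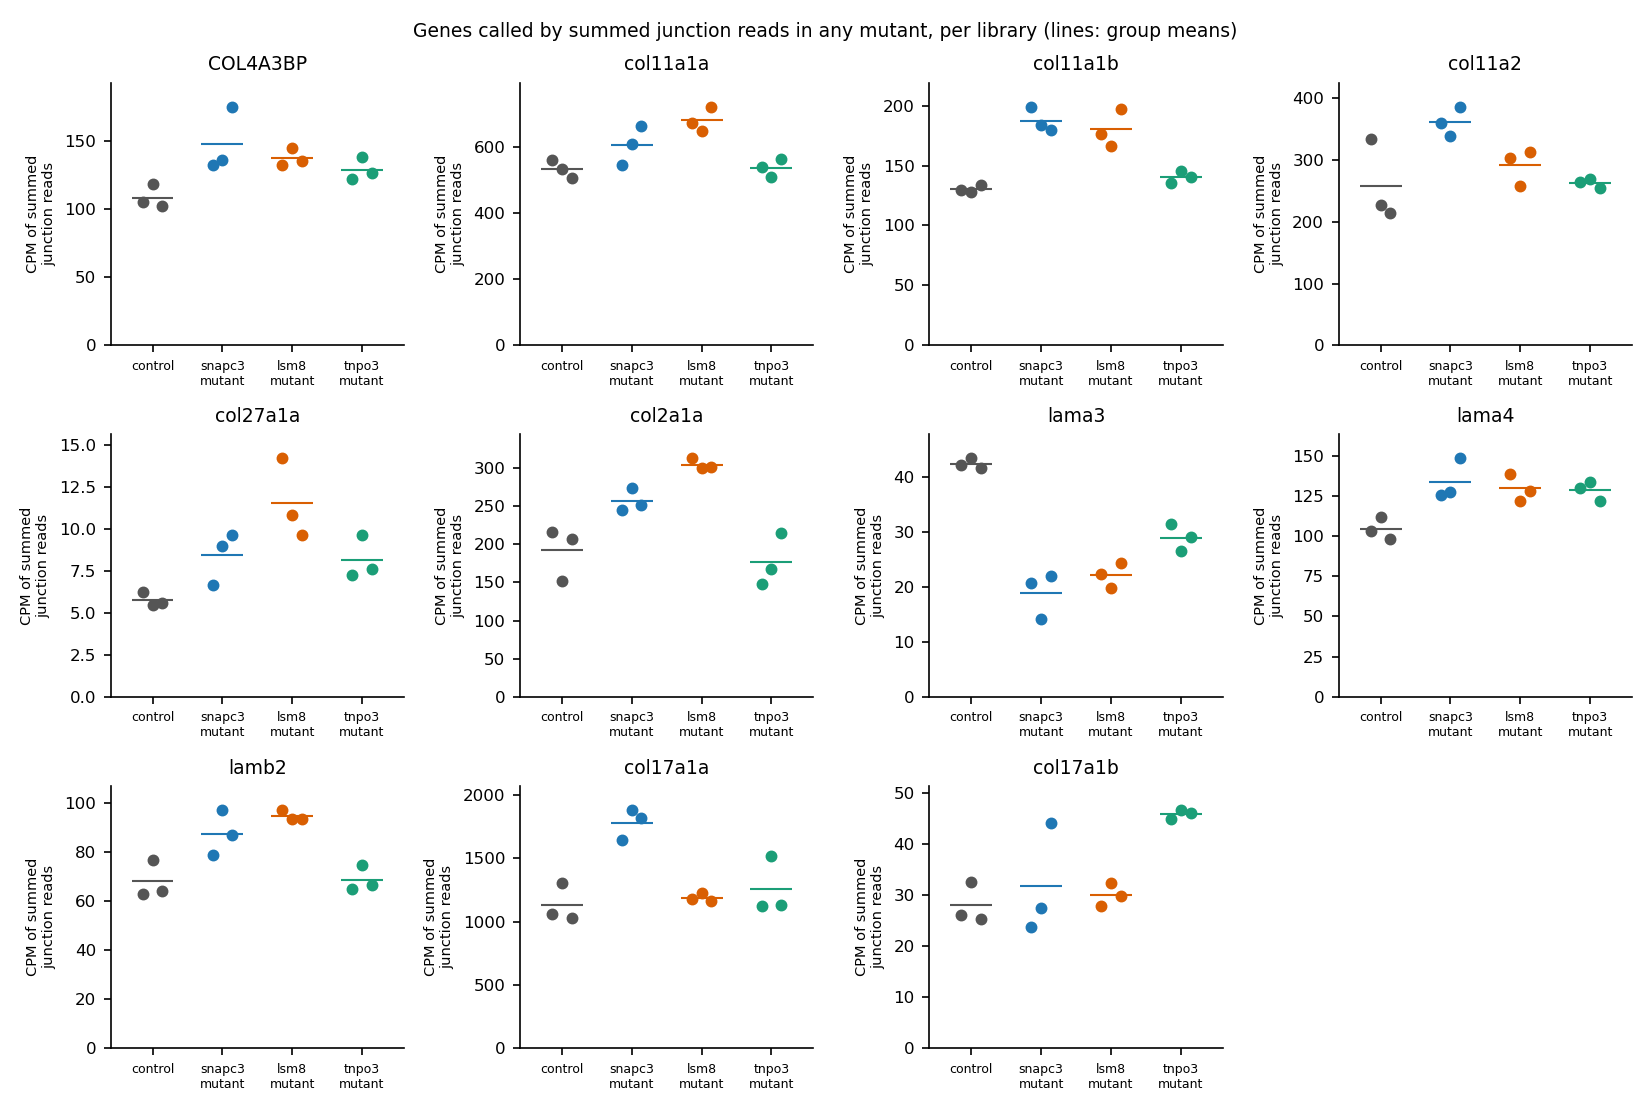
CPM of summed junction reads in each library (points; lines are group means of 3 libraries) for the 11 genes called in any mutant. The lama3 level is below all controls in every mutant library, and col11a1b is above all controls in the snapc3 and lsm8 mutants.

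As a group, the matrix genes leaned upwards relative to all genes. The log2 difference was above 0 for 39 of 51 genes in snapc3, 44 in lsm8 and 37 in tnpo3 mutants, against 49.6%, 50.3% and 50.7% of all genes. Its median was 0.25, 0.20 and 0.11, against 0.00, 0.00 and 0.01 over all genes. Scaling by total counts moved the median of all genes by −0.14 in snapc3 and 0.18 in lsm8 mutants and that of the matrix genes to 0.12 and 0.36, still above that of all genes. Groups did not overlap for 21, 12 and 12 genes with higher mutants (13.2%, 15.3% and 12.3% of all genes) and for 3, 1 and 3 genes with lower mutants (14.3%, 16.5% and 12.3%).

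The families contributed unevenly. Fibrillar collagens had a median log2 difference of 0.34 over 8 genes in snapc3 and 0.41 in lsm8 mutants, with 7 and 8 of them above 0, and 0.07 in tnpo3 mutants. Laminin beta chains stood at 0.31, 0.28 and 0.12 over 5 genes. Basement membrane collagens stood at −0.22, 0.07 and −0.15 over 3 genes, and none was called. The matrilin gene matn4, with its many summed events, was at 5184, 7890 and 7085 CPM in controls and 8474, 9046 and 8536 CPM in tnpo3 mutants, above all controls but not called (log2 0.39, limma adjusted p = 0.0924). Levels of matn1 differed little and none of its tests passed (limma adjusted p = 0.311, 0.491 and 0.998).

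**Figure D5:**
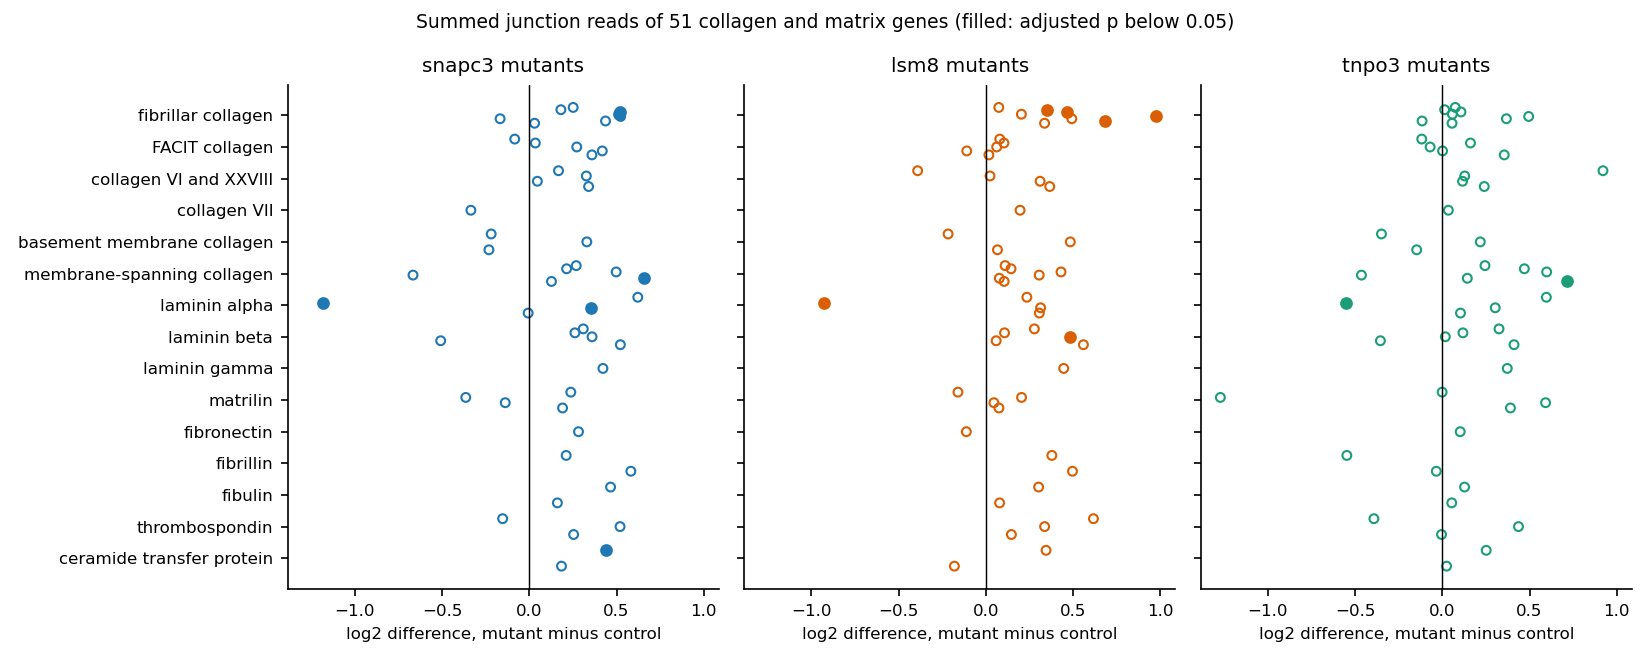
Log2 difference of summed junction reads, mutant minus control, for each of the 51 tested genes (points) by family; filled points have a limma adjusted p below 0.05 over all genes. Fibrillar collagens lie above 0 for 7, 8 and 7 of 8 genes in snapc3, lsm8 and tnpo3 mutants, and lama3 is the lowest called point in each.

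The authors' deposited expression tables list genes past both a p and a fold threshold. Only thbs4a, a thrombospondin of tendon and muscle attachment, was a listed matrix gene, higher in snapc3 mutants at a log2 fold change of 1.11 in the authors' deposited table (SE 0.15, limma adjusted p = 0.0305; 1.38% of genes listed). No matrix gene was listed for lsm8 (2.52% listed) or tnpo3 mutants (0.341%). Genes that are not listed are not called unchanged. Its close relative thbs4b passed in no summed-read test (limma adjusted p = 0.155, 0.407 and 0.987).

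Enzymes and chaperones that make collagen were higher where they passed. Of 19 tested, 2 rose and 0 fell in snapc3 mutants (3.73% and 4.27% of all genes), 5 and 0 in lsm8 mutants (4.98% and 7.16%) and 2 and 0 in tnpo3 mutants (2.01% and 3.65%). The procollagen folding enzyme fkbp10b was at 95.01, 93.9 and 90.2 CPM in controls, 164, 175 and 175 CPM in snapc3, 196, 214 and 217 CPM in lsm8 and 115, 163 and 143 CPM in tnpo3 mutants. It rose in all of them, by 0.88 (limma adjusted p = 0.000341), 1.17 (1.37e-05) and 0.58 (0.0103). The collagen chaperone serpinh1b rose by 0.85 in lsm8 (limma adjusted p = 0.0195) and by 0.91 in tnpo3 mutants (0.0220). The prolyl 3-hydroxylase lepre1 rose by 0.80 in snapc3 mutants (limma adjusted p = 0.00785), and p4ha1b, fkbp14 and adamts3 rose in lsm8 mutants by 0.48, 0.52 and 0.63. The median of the list was 0.26, 0.30 and 0.20, near that of the matrix genes.

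Receptors and partner proteins of the matrix moved in both directions. Of 18 receptors, 3 rose and 1 fell in snapc3 mutants (3.73% and 4.27% of all genes), 2 and 1 in lsm8 mutants (4.98% and 7.16%) and 0 and 1 in tnpo3 mutants (2.01% and 3.65%). The scavenger and thrombospondin receptor cd36 was the one that fell, from 266, 195 and 298 CPM in controls to 131, 108.4 and 122.6 CPM in snapc3, 141, 138 and 155 CPM in lsm8 and 180, 139 and 144 CPM in tnpo3 mutants (log2 −1.05, −0.78 and −0.70, limma adjusted p = 0.000512, 0.00311 and 0.0108). The integrin chain itgb1a rose by 0.45 in snapc3 and 0.34 in lsm8 mutants, itgav by 0.49 and itga1 by 0.58 in snapc3 mutants, and itgb1b.1 by 0.44 in lsm8 mutants. Their median was 0.30, 0.28 and 0.10.

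Of 16 matrix partners, 5 rose and 0 fell in snapc3 mutants (3.73% and 4.27% of all genes), 5 and 1 in lsm8 mutants (4.98% and 7.16%) and 0 and 0 in tnpo3 mutants (2.01% and 3.65%), where 4 had an unadjusted p below 0.05 (limma). The collagen-binding protein sparc rose by 0.54 in snapc3 and 0.38 in lsm8 mutants, and the tenascin tnw by 0.67 and 0.74. Of the periostins, postna rose by 0.74 in snapc3 mutants (limma adjusted p = 0.000931) and fell by 0.64 in lsm8 mutants (limma adjusted p = 0.00412), while postnb rose by 0.96 in lsm8 mutants. The small proteoglycans dcn and fmoda rose by 0.57 and 0.67 in snapc3 mutants, and tnc and emilin1a by 0.67 and 0.95 in lsm8 mutants. The median was 0.23, 0.33 and 0.18.

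Markers of the tissues that hold this matrix were set beside these results. Of 6 cartilage markers outside the gene set, 1 fell in snapc3 mutants (sox5, log2 −0.43, limma adjusted p = 0.00944), where 4.27% of all genes fell and 3.73% rose. None passed in lsm8 or tnpo3 mutants (12.1% and 5.66% of all genes), where 1 and 2 had an unadjusted p below 0.05 (limma). Their summed level was 491 to 535 CPM in controls, 471 to 547 in snapc3, 495 to 557 in lsm8 and 489 to 518 CPM in tnpo3 mutants, so the groups overlapped. For 6 epidermis markers the sums were 10763 to 13007, 10406 to 14705, 11919 to 15179 and 11074 to 15159 CPM, again overlapping. These sums mostly follow krt4, at 9464, 11283 and 9914 CPM in controls. No epidermis marker was called by limma, with 1, 0 and 1 at an unadjusted p below 0.05. None of 4 bone markers, 1 notochord marker and 1 endothelium marker was called, nor had any an unadjusted p below 0.05 (limma).

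Some muscle, nerve and fibroblast markers passed the test; over all genes 3.73%, 4.98% and 2.01% rose and 4.27%, 7.16% and 3.65% fell in snapc3, lsm8 and tnpo3 mutants. Of 6 muscle markers, 4 rose in snapc3 mutants and 1, ttnb, in lsm8 mutants. Their sum was 32875 to 37234 CPM in controls, 54253 to 57708 in snapc3, 41072 to 45262 in lsm8 and 31253 to 37850 CPM in tnpo3 mutants. The largest part of it was mylpfa, at 21136, 17206 and 16745 CPM in controls. Of 5 neuron markers, 3 fell in lsm8 mutants (1796 to 1996 CPM against 2052 to 2192 in controls) and 2 rose in tnpo3 mutants, elavl3 by 0.52 and elavl4 by 0.32. The other neuron markers snap25a, syt1a and snap25b stood at log2 −0.16, −0.18 and −0.07 in tnpo3 mutants and did not pass. The fibroblast marker prrx1b rose by 0.50 in snapc3 and 0.75 in tnpo3 mutants. No tested marker was at 0 in a whole group. The part of these shifts in the higher collagen and partner genes was not tested.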

How the data were processed

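Stranded libraries were built from rRNA-depleted total RNA of whole embryos, per the labels' protocols. The submitters' processing notes name limma 3.26.3, Bowtie2 2.2.3, TopHat2 2.0.13, featureCounts 1.4.5-p1 and build Zv9, without settings. The authors deposited, per mutant, a table of log2 fold change, average log2 expression, a moderated statistic and a log-odds score (unused), p-value and adjusted p-value, listing only genes past both thresholds. The authors also deposited tables of skipped exons and retained introns, per the file headers with inclusion and skipping junction read counts per library, form lengths, a p-value and an FDR. The labels and headers do not name the tool. Coordinates are Zv9.

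Exons and introns were tested with limma 3.58.1 (trend, robust) in R 4.3.3 on the log2 ratio of length-divided inclusion to skipping reads with a pseudocount of 0.5, on all events of a table with a mean of at least 10 reads, with Benjamini-Hochberg adjustment. Mutant pairs were tested in 1 fit of all groups. Junction reads of events in all tables were summed per gene, filtered (10 reads in 3 libraries, 15 in total) and scaled by TMM. The sums are whole reads, but they were tested by limma voom over all 12 libraries in place of the planned count model. Both steps were tested on simulated data. Every library held at least 5578850 such reads, so error is largest for events with few reads, and limits for 0 reads take 3 reads and cover counting error only. Tables were read with Python 3.11.15 and pandas 2.3.3. Gene symbols are those in the files, and the gene name table matched 63 of 78 identifiers.

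Named are called events and genes, the 10 partly used exons nearest 50%, listed genes and 24 genes whatever their values. Further events below the minimum difference, the split of events by skipping reads, the matn4 junctions and the exon 4 ratio were chosen after their values were seen. The members and lists were chosen with earlier results of these data known.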

Additional observations from a re-analysis of the deposited data

Results flagged for a closer look

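Direct tests between mutants found 7 distinct events that differed (limma adjusted p below 0.05 and at least 10 points), 4 of them in both comparisons with lsm8 mutants. Of the 7, 6 lay in matrix genes and 1 in col4a3bpa, which shares only the name. In lsm8 minus snapc3 mutants all 4 lay in matn4: exon 7 between exons 4 and 10 at 38.7 points, exon 6 in that place at 33.9 points, exon 8 between exons 7 and 10 at −11.2 points, and exon 8 between exons 2 and 10 at 74.6 points. The last rests on few reads, with libraries at 50%, 100% and 77.8% in lsm8 and 0%, 0% and 4% in snapc3 mutants. No read in any mutant library joined exon 2 to exon 8. That event sets reads joining exon 8 to exon 10 (4, 4 and 7 in lsm8 mutants) against those joining exon 2 to exon 10 (2, 0 and 1). It does not show exon 8 included after exon 2. In tnpo3 minus lsm8 mutants the same 4 events stood at −37.9, −31.7, 10.8 and −66.7 points, and matn4 exon 9 between exons 5 and 11 at 39.2 points. In that exon 9 event no read of the tnpo3 mutants joined exon 9 to exon 11.

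In the ceramide transfer protein gene col4a3bpa a 78-base exon differed by 27.4 points, at 60.7%, 57.4% and 50% in tnpo3 and 30.6%, 33.9% and 21.3% in lsm8 mutants (limma adjusted p = 0.0310). A 139-base exon of lama5, a laminin alpha chain, differed by 13.6 points, at 100%, 100% and 95.1% in tnpo3 and 86.4%, 77.8% and 90% in lsm8 mutants (limma adjusted p = 0.0438). Controls stood at 100%, 96.2% and 100% for lama5. These mutants also differ in strain background, and no comparison within a background was made.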

How the results depend on the processing

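No result changed direction under any alternative run. For called exons in snapc3 mutants (1), the count was 0 with a pseudocount of 2 reads, a minimum of 20 points, a quasi-binomial model or a fit of all groups, 2 with the deposited FDR, and 0 to 3 with each library left out in turn. For lsm8 mutants (4) it was 17 with no minimum difference, 2 at 20 points, 11 with the deposited FDR, 2 in the quasi-binomial model, 1 without matn4 and 3 to 6 with each library left out. For tnpo3 mutants (2) it was 1 with no read minimum, 6 with no minimum difference, 0 at 20 points, 7 with the deposited FDR, 0 in the quasi-binomial model and the fit of all groups, 1 without matn4 and 1 to 6 with each library left out. Intron calls were 0 throughout, and a minimum of 20 reads left no value for lsm8 mutants. For genes by summed reads, snapc3 mutants (6) had 1 at a log2 difference of at least 1, 3 under total count scaling, 3 with all events of their own table and 3 to 6 with each library left out. The lsm8 mutants (6) had 0 at that difference, 15 under total count scaling and 3 to 6 with each library left out. The tnpo3 mutants (2) had 0 at that difference, 1 under total count scaling, in a trend fit, with 1 event per gene and with reads scaled by form length, and 0 to 2 with each library left out. Between mutants, calls numbered 3 to 4 for lsm8 minus snapc3, 4 to 6 for tnpo3 minus lsm8 (7 with all libraries) and 0 to 1 for tnpo3 minus snapc3 with each library left out. Total count scaling, the trend fit and the count without matn4 were chosen after seeing the data. The cause of these changes was not tested. The planned DESeq2 and edgeR fits were not run, and median-of-ratios scaling within limma voom stood in for their size factors. No paired analysis was possible because the columns carry no replicate numbers.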
